A study of Mus musculus with 8 samples.

Results

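Transcripts of the cyclic AMP system were examined in follicles of Kunming mice, an outbred stock. The genes were chosen by name from the deposited table and comprise the adenylyl cyclases, the subunits of protein kinase A (PKA), the phosphodiesterases of the Pde4, Pde7 and Pde8 groups, the A-kinase anchoring proteins and the Rapgef exchange factors. The pattern matched 53 names, of which 6 ending in -ps or os (a pseudogene and antisense transcripts) were dropped, leaving 47 of the 55157 genes in the table. All mice were at postnatal day 21 and had received pregnant mare serum gonadotropin (PMSG, which acts on the receptor for follicle-stimulating hormone, FSH) 24 hours earlier. Control mice received PMSG with normal saline and the other mice PMSG with melatonin, and RNA of type 7-8 follicles (a morphological stage) was sequenced in 4 libraries per group. Every library therefore comes from gonadotropin-treated mice, and the single contrast is melatonin against saline. The labels do not say whether a library is 1 animal or a pool, so a p-value here reflects only how much these libraries vary, which may be technical.

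Cyclic AMP is made from ATP by adenylyl cyclases, which the stimulatory G protein switches on below receptors such as that for FSH. It binds the regulatory subunits of PKA and frees the catalytic subunits, and it also opens the EPAC proteins (Rapgef3 and Rapgef4), which activate the small GTPase Rap. Phosphodiesterases break it down, and anchoring proteins hold PKA at set places in the cell. In granulosa cells this pathway carries the FSH signal, and in the oocyte a high level of cyclic AMP holds meiosis in arrest. Melatonin receptors couple to the inhibitory G protein.

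The libraries held 16446614 to 22098108 fragments on genes whose counts could be recovered, and 30 of the 47 genes had a mean of at least 1 FPKM (the deposited unit, which counts fragments relative to exon length and library size) over the 8 libraries, which was the minimum for testing. Libraries of the groups also differed in composition. Across genes, the Spearman correlation between GC content and how far a library lay from the average ran from -0.022 to 0.269 over the control libraries and from -0.184 to -0.124 over the melatonin ones. For exon length the corresponding ranges were -0.107 to -0.048 and 0.024 to 0.115. The first principal component separated the groups, being negative in every control library and positive in every melatonin library. Control replicates 1 to 4 lay at -7.06, -11.4, -29.9 and -0.486, while melatonin replicates 1 to 4 lay at 17.4, 12.7, 5.81 and 12.9. Whether this split follows treatment or the GC and length trends was not tested. Control replicate 3 lay farthest out. It also had the highest sums of erythroid markers (1545 FPKM, others 66.5 to 891) and immune markers (141 FPKM, others 29.4 to 70.9). The tested cyclic AMP genes had a median exon length of 6.71 kb against 3.68 kb for all tested genes with a length, and each value was recomputed with the GC and length trends taken out. That moved the log2 fold change of 13 of the 30 tested genes by more than 1.5 times or across 0.

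The transcripts of the system were dominated by few members of each family. The highest was Prkar2b, the RII-beta subunit of PKA, at 292 FPKM on average over the 8 libraries, above 99.4% of tested genes. Next came Akap8l at 88.0 FPKM and Akap8 at 54.5 FPKM, with the RI-alpha subunit transcript Prkar1a at 64.4 FPKM between them. Both Akap8l and Akap8 are counted with the anchoring proteins by name. The main cyclases were Adcy9 at 31.7 FPKM and Adcy6 at 18.3 FPKM, the main catalytic subunit Prkaca at 32.7 FPKM, the main exchange factor Rapgef4 at 25.2 FPKM and the main phosphodiesterase Pde8a at 14.0 FPKM. The 17 genes under the minimum rested on 1 to 973 recovered fragments over the 8 libraries.

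**Figure D1:**
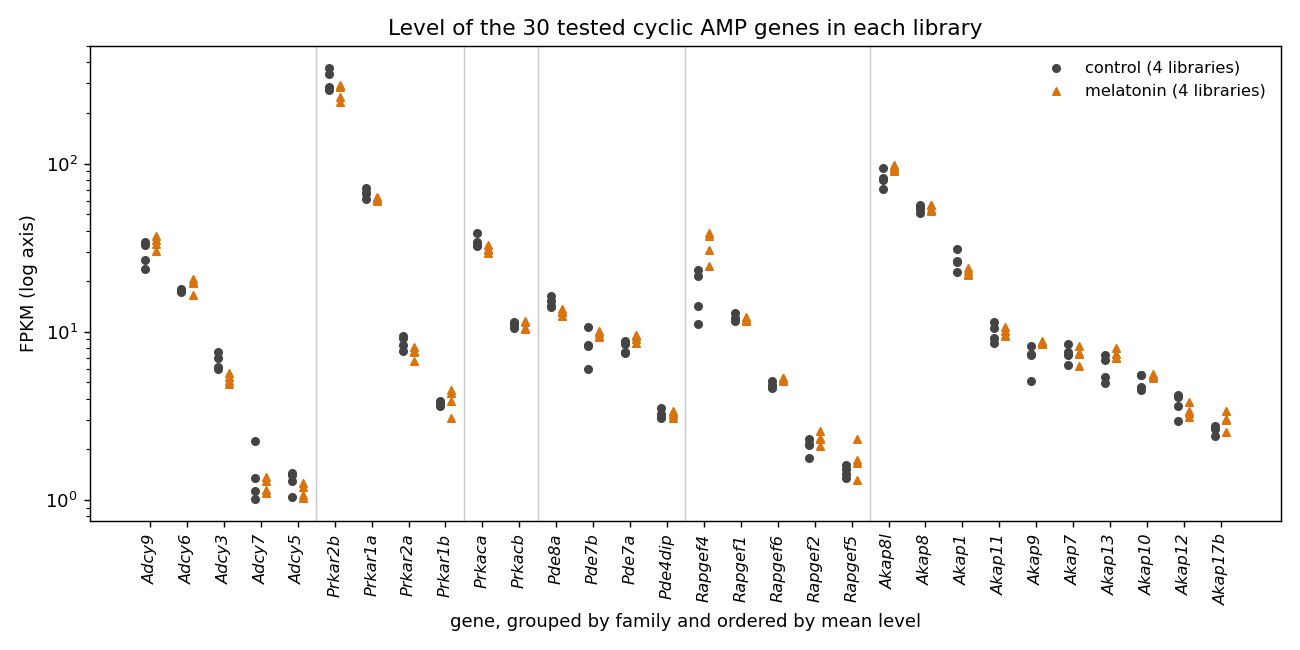
FPKM (log axis) of the 30 tested genes in each library, grouped by family, with control libraries as grey circles and melatonin libraries as orange triangles. Prkar2b lies highest, and in Rapgef4 all 4 melatonin values (24.7 to 38.6) lie above the control values (11.1 to 23.4).

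No member passed the test between melatonin and control. With limma on log2(FPKM + 1), 0 of 30 had an adjusted p under 0.05 (Benjamini-Hochberg over all 14738 tested genes), the smallest being 0.145. Of all tested genes 0, or 0%, passed. At an unadjusted p under 0.05 there were 9 of 30 members (30%), where 19.1% of all tested genes reached that level. Of the 9, 4 were higher with melatonin, as were 9.4% of all tested genes, and 5 were lower, as were 9.74%. limma-voom on recovered fragments also called 0 members, with 9 of 28 at an unadjusted p under 0.05 (19.9% of all genes in that fit). In 4 of 30 members (13.3%) the groups did not overlap, against 11.7% of all tested genes, so that share was near the background. These were Rapgef4 and Akap9 on the higher side (5.79% of all tested genes) and Adcy3 and Pde8a on the lower (5.94%). The log2 fold change was negative in 14 of 30 members and in 52.5% of all tested genes, with a median of 0.016 over the members and -0.0099 over all tested genes. After the GC and length correction 5 of 30 members (16.7%) had an unadjusted p under 0.05, against 17.1% of all genes so corrected, and 2 (6.67%), Rapgef4 and Adcy3, did not overlap, against 10.3%. Neither share was above the background. The values below are therefore given as levels and differences that did not pass. In whole follicles, fewer cells of a type and less RNA per cell cannot be told apart.

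**Figure D2:**
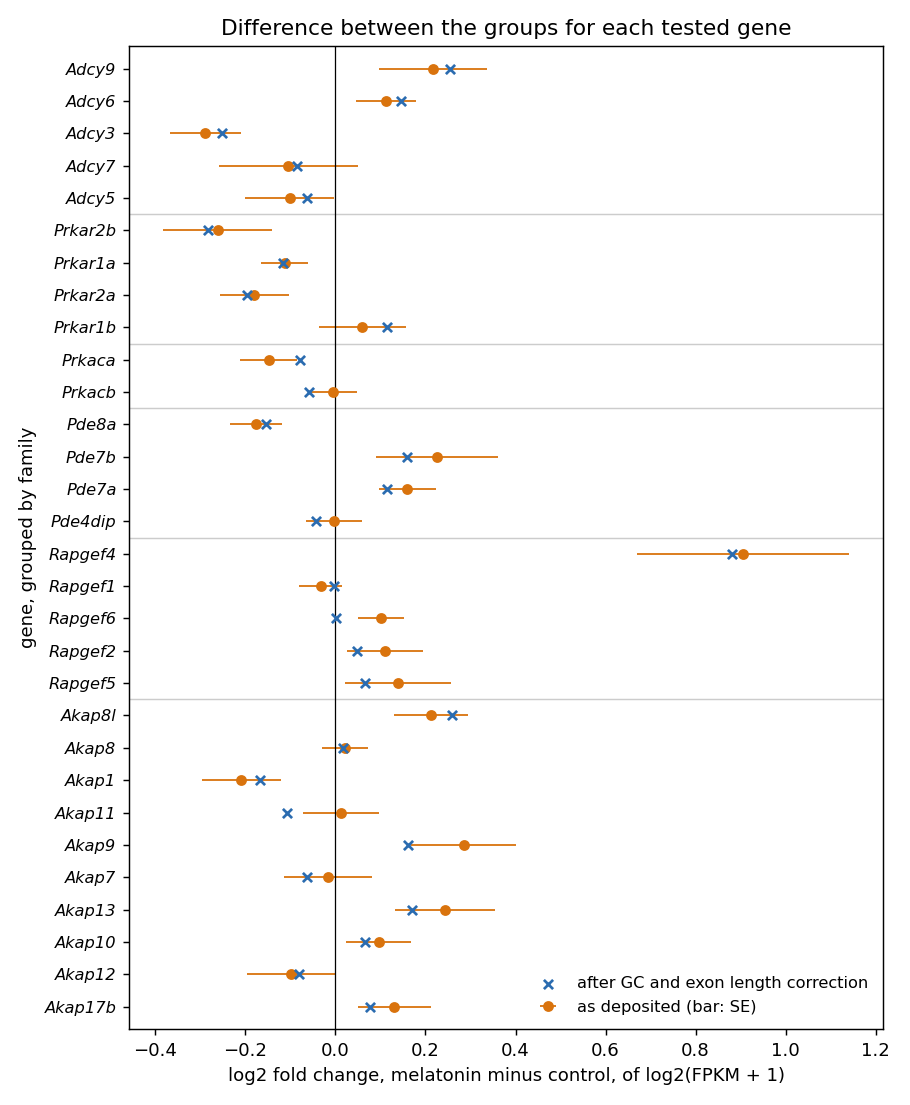
Log2 fold change of each tested gene (melatonin minus control, on log2(FPKM + 1)) with its standard error (orange), and the same with trends in GC content and exon length taken out (blue crosses). Rapgef4 lies at 0.91, and the other 29 genes lie between -0.29 and 0.28.

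Rapgef4, which codes for EPAC2, a cyclic AMP-gated exchange factor for Rap best known from insulin secretion, had the largest difference among the members. It lies on chromosome 2 (71981240 to 72257474, plus strand, mm10). Its level was 21.3, 23.4, 11.1 and 14.2 FPKM in control replicates 1 to 4 and 38.6, 37.3, 24.7 and 30.8 FPKM in melatonin replicates 1 to 4. Every melatonin library was above every control library, although the lowest melatonin value, 24.7, lay close to the highest control value, 23.4. The means of 17.5 ± 5.79 (control) and 32.9 ± 6.42 FPKM (melatonin; SD, n = 4 each) had a ratio of 1.88. The log2 fold change was 0.91 ± 0.24 (SE, limma, unadjusted p = 0.00431, adjusted p = 0.145), resting on 9308 recovered fragments in control and 18894 in melatonin. After the GC and length correction it was 0.88, and without control replicate 3, the lowest library, it was 0.72 (limma adjusted p = 0.258).

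The 3 antisense genes within Rapgef4 had higher means with melatonin too. Rapgef4os3 was at 3.54, 4.18, 2.06 and 2.40 FPKM in control and at 8.09, 6.21, 5.75 and 5.82 FPKM in melatonin replicates 1 to 4, with no overlap (log2 fold change 0.91 ± 0.18 SE, limma adjusted p = 0.120). Rapgef4os1 averaged 4.58 ± 3.11 FPKM without and 11.1 ± 3.68 FPKM with melatonin, and Rapgef4os2 had 1.19 ± 0.48 and 1.96 ± 0.28 FPKM (SD, n = 4 each), with overlapping groups in both. All 3 were lowest in control replicate 3, as Rapgef4 was. Rapgef4os1 and Rapgef4os3 share 0 exon bases with Rapgef4, and Rapgef4os2 shares 337 of its 2116. Whether the counting used strand is not given in the sources used here, and without it reads from introns of Rapgef4 and from these antisense genes cannot be told apart.

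**Figure D3:**
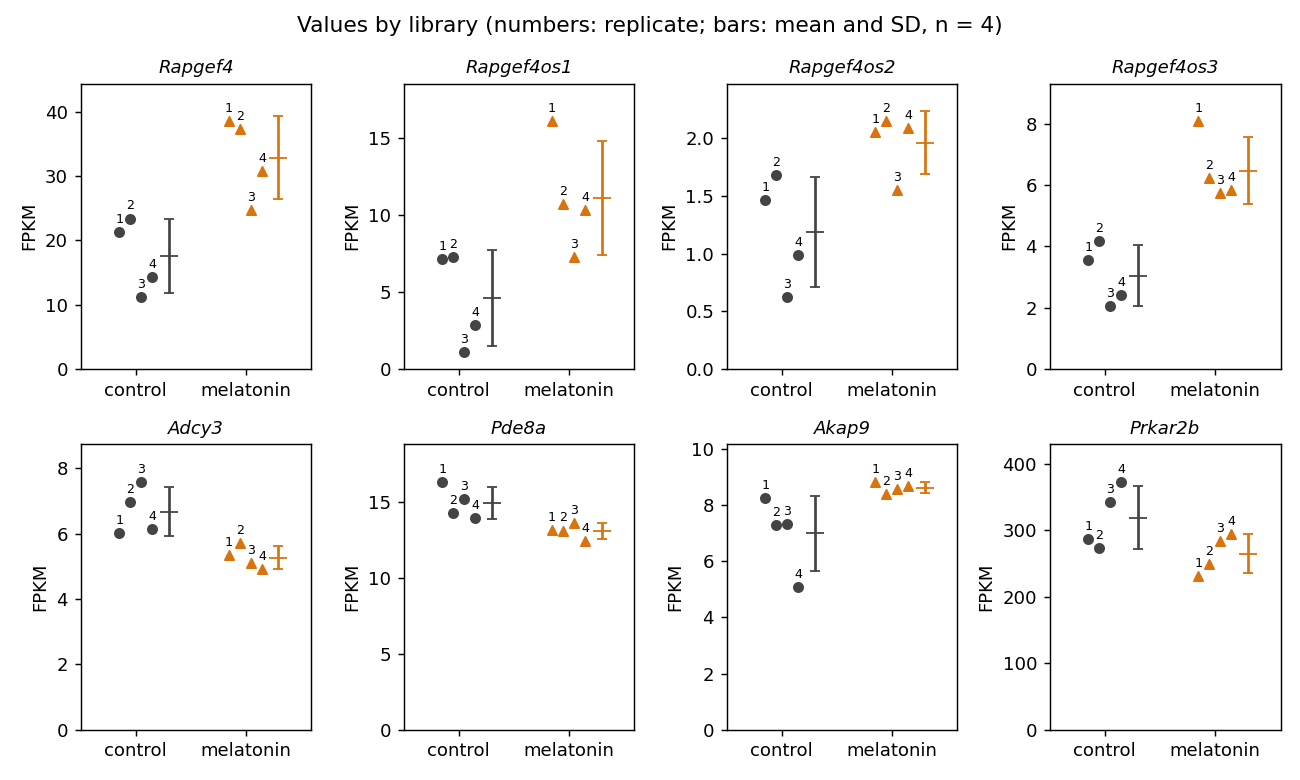
FPKM of Rapgef4, its 3 antisense genes, Adcy3, Pde8a, Akap9 and Prkar2b in every library, with replicate numbers beside the points and mean and SD (n = 4) to the right. Rapgef4, Rapgef4os3 and Akap9 are higher, and Adcy3 and Pde8a lower, in each melatonin library than in any control library, while Rapgef4os1, Rapgef4os2 and Prkar2b overlap.

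The sequence before the Rapgef4 start is shown because this gene had the largest difference. RefSeq (GRCm38.p6) places it at chr2:71980965-71981214 on the plus strand, and these 250 bases end just before the annotated start.
Rapgef4: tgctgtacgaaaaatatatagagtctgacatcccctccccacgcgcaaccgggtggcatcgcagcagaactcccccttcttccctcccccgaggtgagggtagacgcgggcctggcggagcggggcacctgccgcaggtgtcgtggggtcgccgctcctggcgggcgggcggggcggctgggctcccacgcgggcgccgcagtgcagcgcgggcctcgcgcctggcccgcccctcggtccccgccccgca
The stretch holds neither the cyclic AMP response element TGACGTCA nor its 5-base core TGACG on either strand, which says only that these letters are not in this window.

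The remaining exchange factors differed less. Rapgef3 (EPAC1), the close relative of Rapgef4, was under the minimum with means of 0.334 ± 0.191 (control) and 0.245 ± 0.053 FPKM (melatonin; SD, n = 4 each). Rapgef4 thus made up 96.2% to 99.4% of the summed EPAC FPKM in every library. Rapgef1, which is grouped with EPAC by name and acts on Rap without binding cyclic AMP, was at 12.0, 11.8, 11.6 and 12.9 FPKM in control and at 11.5, 11.7, 11.7 and 12.2 FPKM in melatonin (log2 fold change -0.03 ± 0.05 SE, limma adjusted p = 0.727). The groups overlapped. The lower Rapgef2, Rapgef5 and Rapgef6 had log2 fold changes of 0.11, 0.14 and 0.10 (limma adjusted p = 0.496, 0.537 and 0.319), and after the GC and length correction 0.048, 0.065 and 0.001. That of Rapgef5 was 0.046 without melatonin replicate 1. The share of Rapgef4 in the summed FPKM of the 6 exchange factors ran from 35.7% to 52.7% over the control and from 53.8% to 64.5% over the melatonin libraries.

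Among adenylyl cyclases, Adcy9, Adcy6 and Adcy3 carried nearly all of the transcript. Adcy9, a widely expressed cyclase, was at 26.6, 34.2, 23.7 and 33.0 FPKM in control and at 35.3, 33.3, 30.2 and 37.2 FPKM in melatonin. Control replicates 2 and 4 lay within the melatonin range and replicates 1 and 3 below it (log2 fold change 0.22 ± 0.12 SE, limma adjusted p = 0.361). Leaving out control replicate 3 gave 0.12. Adcy6, a cyclase inhibited by calcium, was at 17.7, 17.4, 17.8 and 17.2 FPKM in control and at 19.6, 19.9, 16.5 and 20.5 FPKM in melatonin. Melatonin replicate 3 alone lay below the control range (0.11 ± 0.07 SE, limma adjusted p = 0.392).

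Adcy3, a cyclase known from olfactory neurons and from meiotic arrest in rodent oocytes, was the cyclase without overlap. It lies on chromosome 12 (4133103 to 4213525, plus strand, mm10). Control replicates 1 to 4 had 6.02, 6.97, 7.59 and 6.13 FPKM and melatonin replicates 1 to 4 had 5.36, 5.71, 5.11 and 4.90 FPKM. All melatonin values lay below the lowest control value. The means were 6.68 ± 0.75 and 5.27 ± 0.35 FPKM (SD, n = 4 each), with a log2 fold change of -0.29 ± 0.08 (SE, limma unadjusted p = 0.00597, adjusted p = 0.148) and of -0.25 after the GC and length correction. Cenpo, a centromere protein gene on the other strand, shares 1380 exon bases with Adcy3, or 22.1% of its exons. Cenpo averaged 3.54 ± 0.24 FPKM without and 3.27 ± 0.24 FPKM with melatonin, with overlapping groups. Oocyte markers, of which 13 of 14 had a negative log2 fold change, had sums of 407 to 635 FPKM (control) and 398 to 509 FPKM (melatonin), with none of the 14 at 0. Their part in the Adcy3 difference was not tested.

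The ratio of Adcy6 to Adcy3 lay between 2.35 and 2.94 without melatonin and between 3.23 and 4.18 with it, without overlap. That of Adcy9 to Adcy6 overlapped, at 1.33 to 1.96 and 1.68 to 1.83. Adcy3 itself did not overlap, so its ratio to Adcy6 reuses those values. The GC and length correction was not applied to these ratios, and they have no share over all genes beside them. Of the summed cyclase FPKM, Adcy3 made up 11.7% ± 1.80 without and 8.58% ± 0.85 with melatonin (SD, n = 4 each), and Adcy9 51.0% ± 4.75 and 55.1% ± 1.16. The summed level itself was 57.3 ± 5.14 and 61.7 ± 4.62 FPKM, with overlapping groups. Adcy5 and Adcy7 had 1.22 and 1.33 FPKM on average and log2 fold changes of -0.10 each (limma adjusted p = 0.590 and 0.736), and that of Adcy7 was 0.042 without control replicate 2. Adcy7, a cyclase of blood cells among others, was highest in control replicate 2 at 2.25 FPKM, against 1.01 to 1.36 FPKM in the other libraries. Adcy1, Adcy2, Adcy4, Adcy8 and the bicarbonate-sensitive Adcy10 were under the minimum, from 0.019 to 0.491 FPKM on average.

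Of the 4 PKA regulatory transcripts, 3 had a negative log2 fold change and none passed the test. Prkar2b, long known as an FSH-responsive transcript of granulosa cells (chromosome 12, 31958476 to 32061296, minus strand, mm10), was at 286, 272, 343 and 373 FPKM in control replicates 1 to 4. It was at 231, 249, 284 and 295 FPKM in melatonin replicates 1 to 4, so that melatonin replicates 3 and 4 lay within the control range. The means were 319 ± 47.4 and 265 ± 29.7 FPKM (SD, n = 4 each; log2 fold change -0.26 ± 0.12 SE, limma adjusted p = 0.281), and quantile normalization gave -0.16. Of the granulosa markers 11 of 12 also had negative values, and they had sums of 7784 to 10360 FPKM (control) and 6612 to 7633 FPKM (melatonin). Most of these sums was the inhibin subunit gene Inha, at 6597 and 5445 FPKM on average. The log2 fold changes of the 12 ran from -1.16 (Cyp19a1) to 0.09 (Nr5a2), with a median of -0.29. None of these markers was at 0, and their part in the Prkar2b difference was not tested.

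Prkar1a, the RI-alpha subunit, was at 67.1, 61.6, 72.0 and 67.3 FPKM in control and at 62.1, 63.5, 60.2 and 61.4 FPKM in melatonin. Control replicate 2 lay among the melatonin libraries (log2 fold change -0.11 ± 0.05 SE, limma adjusted p = 0.290), and quantile normalization gave -0.01. Prkar2a, the RII-alpha subunit, was at 9.41, 9.12, 8.34 and 7.72 FPKM in control and at 8.14, 7.53, 7.66 and 6.72 FPKM in melatonin (-0.18 ± 0.08 SE, limma unadjusted p = 0.0432, adjusted p = 0.247), with overlap through control replicate 4. Prkar1b, the RI-beta subunit known mainly from neurons, was at 3.71 ± 0.12 and 3.95 ± 0.63 FPKM (SD, n = 4 each). Its log2 fold change of 0.06, or 0.12 after the GC and length correction, was the sole positive one of the 4 regulatory subunits. Prkar2b made up 75.6% to 82.6% of the summed regulatory FPKM over the 8 libraries, and the shares of the groups overlapped for each of the 4 subunits.

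Promoter windows of the members were searched for the cyclic AMP response element, the site bound by CREB and the DNA element most closely tied to PKA signalling. Shown are a short stretch of Prkar1a, the member that held the full element, and a window of Pde8a. Of the 4 members whose groups did not overlap, Pde8a alone held the 5-base core, and Adcy3, Akap9 and Rapgef4 held neither. RefSeq promoter windows (250 bases before to 50 after a start) matched 42 of the 47 members, with 75 windows. Adcy6, Adcy8, Akap2, Akap12 and Pde7a had no entry. TGACGTCA, which reads the same on both strands, was in 2 windows (2.67%), both of Prkar1a and overlapping, against 1.79% of all 32851 windows. The 5-base core, TGACG or its complement CGTCA, which the full element contains, was in 22.7% of the members' windows and in 20.8% of all windows. No test was run on these shares. The element of Prkar1a begins 49 bases before a RefSeq start, within the 28-base stretch chr11:109650890-109650917 on the plus strand. The core of Pde8a begins 84 bases before the start, within chr7:81213015-81213264 on the plus strand. Capitals mark the element or the core.
Prkar1a: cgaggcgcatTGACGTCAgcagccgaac
Pde8a: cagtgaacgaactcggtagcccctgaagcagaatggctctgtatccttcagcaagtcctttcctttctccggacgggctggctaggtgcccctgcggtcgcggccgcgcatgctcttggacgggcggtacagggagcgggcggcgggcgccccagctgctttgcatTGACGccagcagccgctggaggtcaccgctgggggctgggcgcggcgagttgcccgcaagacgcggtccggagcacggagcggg
A match is a description of letters and not of a bound site. No binding was measured here.

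Both catalytic subunits were tested, and neither passed. Prkaca, the C-alpha subunit, was at 32.8, 32.4, 38.7 and 34.1 FPKM in control and at 30.8, 32.6, 30.9 and 29.6 FPKM in melatonin (log2 fold change -0.15 ± 0.06 SE, limma unadjusted p = 0.0454, adjusted p = 0.252). Melatonin replicate 2 lay above control replicate 2, so the groups overlapped, and the GC and length correction gave -0.08. Prkacb, the C-beta subunit, was at 11.1, 10.5, 11.0 and 11.4 FPKM in control and at 10.5, 11.5, 10.4 and 11.4 FPKM in melatonin (-0.005 ± 0.05 SE, limma adjusted p = 0.966). Prkaca was 2.60 to 3.50 times Prkacb in FPKM over the 8 libraries. Regulatory subunits summed to 7.34 to 9.93 times the catalytic subunits in FPKM, with means of 8.74 ± 0.82 (control) and 8.07 ± 0.82 (melatonin; SD, n = 4 each). These are ratios of transcripts and not of proteins.

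Among phosphodiesterases, Pde8a and the Pde7 genes carried most of the transcript. The log2 fold change was negative in Pde8a and positive in the Pde7 genes, and none of them passed the test. Pde8a, a high-affinity cyclic AMP phosphodiesterase (chromosome 7, 81213596 to 81334533, plus strand, mm10), was at 16.3, 14.3, 15.2 and 14.0 FPKM in control and at 13.2, 13.1, 13.6 and 12.4 FPKM in melatonin. All melatonin values lay below the control values, the nearest being 13.6 in melatonin and 14.0 in control (log2 fold change -0.18 ± 0.06 SE, limma unadjusted p = 0.0151, adjusted p = 0.176). After the GC and length correction it was -0.15, with overlapping groups.

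Pde7a, also specific for cyclic AMP, was at 8.85, 7.51, 7.60 and 8.48 FPKM in control and at 9.53, 8.59, 9.06 and 9.48 FPKM in melatonin. Control replicate 1 lay above melatonin replicate 2 (log2 fold change 0.16 ± 0.06 SE, limma unadjusted p = 0.0363, adjusted p = 0.234), and the GC and length correction gave 0.11. Pde7b, its paralogue, was at 8.32, 8.21, 5.96 and 10.7 FPKM in control and at 9.83, 9.31, 9.46 and 10.2 FPKM in melatonin, with both the lowest and the highest value in control (0.22 ± 0.14 SE, limma adjusted p = 0.399). Without control replicate 3 the Pde7b log2 fold change was 0.09, without control replicate 4 it was 0.34, and the GC and length correction gave 0.16.

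The ratio of Pde7a to Pde8a lay between 0.50 and 0.608 without melatonin and between 0.656 and 0.763 with it, without overlap. That of Pde7b to Pde8a overlapped, at 0.392 to 0.765 and 0.695 to 0.817. Pde8a itself did not overlap, the GC and length correction was not applied to ratios, and they have no share over all genes beside them. The Pde4, Pde7 and Pde8 enzymes summed to 33.2 ± 2.10 FPKM without and 33.7 ± 0.63 FPKM with melatonin (SD, n = 4 each), while the share of Pde8a in it was 45.1% ± 3.89 and 38.9% ± 1.49. The Pde4 genes, targets of the inhibitor rolipram, were all under the minimum. Pde4a averaged 0.415 FPKM, Pde4b 0.156, Pde4d 0.113 and Pde4c 0.104, and Pde8b lay just under the minimum at 0.993 FPKM. Pde4dip, which matches the name pattern but codes for myomegalin, a scaffold that binds a Pde4 enzyme, was at 3.26 ± 0.20 and 3.25 ± 0.13 FPKM (SD, n = 4 each).

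**Figure D4:**
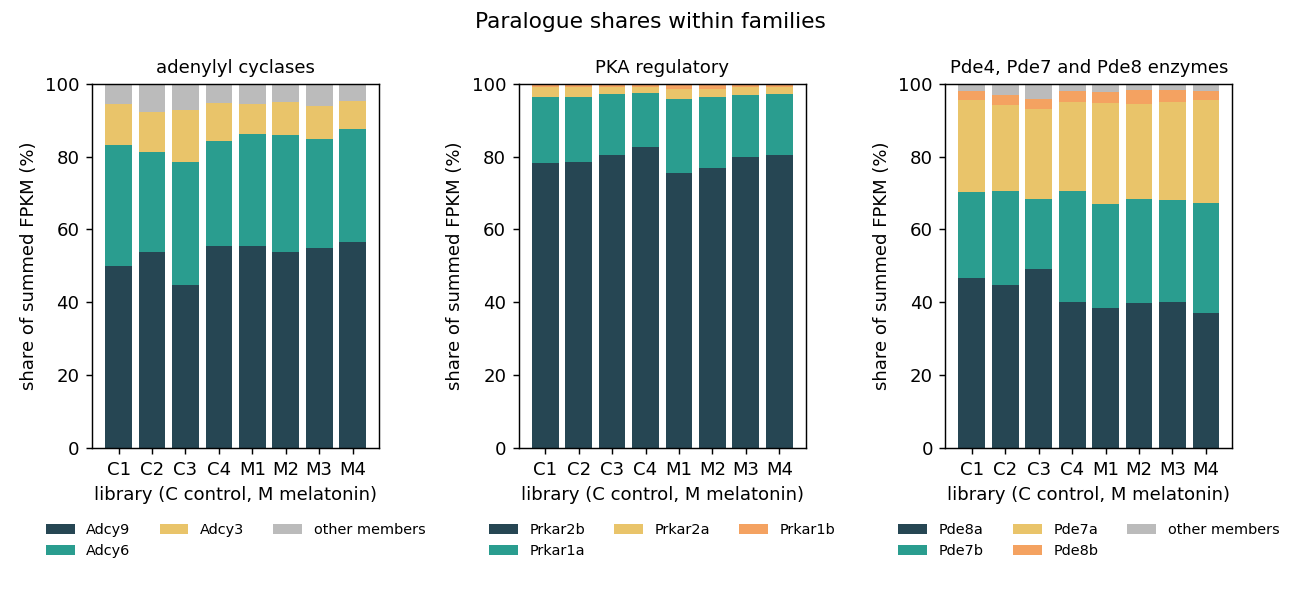
Share of each paralogue in the summed FPKM of the adenylyl cyclases, the PKA regulatory subunits and the Pde4, Pde7 and Pde8 enzymes (percent, stacked to 100) for control libraries C1 to C4 and melatonin libraries M1 to M4. Adcy9 holds 44.7% to 56.5%, Prkar2b 75.6% to 82.6% and Pde8a 37.0% to 49.2%.

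Of the 16 genes named as anchoring proteins, 10 were tested and 7 of these had a positive log2 fold change. Whether each product binds PKA was not examined here. Akap8l, a nuclear protein beside Akap8 on chromosome 17, was at 79.8, 82.6, 70.5 and 93.7 FPKM in control and at 92.4, 90.7, 98.6 and 95.8 FPKM in melatonin. Control replicate 4 lay within the melatonin range (log2 fold change 0.21 ± 0.08 SE, limma unadjusted p = 0.0301, adjusted p = 0.221). Akap8, its paralogue and neighbour (AKAP95, of the nuclear matrix), was at 56.6, 53.8, 51.0 and 55.1 FPKM in control and at 56.9, 54.0, 56.9 and 52.0 FPKM in melatonin (0.02 ± 0.05 SE, limma adjusted p = 0.849). Fragment counts of this pair could not be recovered, so both rest on FPKM alone.

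Akap9, which holds PKA at the Golgi apparatus and centrosome (chromosome 5, 3928054 to 4081310, plus strand, mm10), had 8.26, 7.30, 7.34 and 5.10 FPKM in control and 8.85, 8.42, 8.57 and 8.69 FPKM in melatonin. The groups did not overlap, but control replicate 1 lay near the melatonin values and control replicate 4 far below (log2 fold change 0.28 ± 0.12 SE, limma unadjusted p = 0.0390, adjusted p = 0.239). Leaving out control replicate 4 gave 0.16, and the GC and length correction also gave 0.16, with overlapping groups. Akap13, another anchoring protein, differed in the same direction, at 6.10 ± 1.12 and 7.34 ± 0.49 FPKM (SD, n = 4 each; log2 fold change 0.24, 0.17 after the correction, limma adjusted p = 0.274).

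Akap1, which anchors PKA at the outer mitochondrial membrane, was at 26.1, 26.2, 31.2 and 22.6 FPKM in control and at 23.0, 21.9, 23.9 and 22.0 FPKM in melatonin. Control replicate 3 was the highest and control replicate 4 lay within the melatonin range (log2 fold change -0.21 ± 0.09 SE, limma unadjusted p = 0.0435, adjusted p = 0.248). Without control replicate 3 it was -0.13. The other tested anchoring genes, Akap7, Akap10, Akap11, Akap12 and Akap17b, averaged 2.81 to 9.94 FPKM, had log2 fold changes from -0.10 to 0.13 and overlapped between groups (limma adjusted p from 0.416 to 0.952). The GC and length correction took Akap11 from 0.01 to -0.11.

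The 6 anchoring genes under the minimum were Akap2, Akap3, Akap4, Akap5, Akap6 and Akap14. Akap3 and Akap4 are known from the sperm tail, and Akap4 had 1 fragment in 1 library. Akap5, which anchors PKA and calcineurin at the plasma membrane, was the sole one of the 17 low members without overlap, at 0.286, 0.193, 0.266 and 0.226 FPKM in control and 0.452, 0.375, 0.427 and 0.330 FPKM in melatonin, on 136 and 230 fragments. With no minimum its log2 fold change was 0.17 (limma unadjusted p = 0.0124, adjusted p = 0.312). In that fit 11.1% of genes had an unadjusted p under 0.05 and 6.51% did not overlap. That fit also holds the genes above the minimum. The share among genes under the minimum alone was not computed, so 1 of 17 without overlap has no like background beside it.

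Other genes of the pathway, taken from lists of genes outside the name pattern, gave no call either (0 in each list with limma, Benjamini-Hochberg over all tested genes). Of 18 receptors that raise cyclic AMP 3 were tested, all with negative log2 fold changes. The FSH receptor gene Fshr averaged 59.2 FPKM without and 43.6 FPKM with melatonin (log2 fold change -0.43 ± 0.12 SE, adjusted p = 0.148). The LH receptor gene Lhcgr averaged 3.66 and 2.19 FPKM. Groups overlapped in both through melatonin replicate 4, at 52.7 FPKM for Fshr and 4.14 FPKM for Lhcgr. Fshr is also one of the granulosa markers used here, and Lhcgr one of the theca markers. Gpr3, the oocyte receptor that keeps cyclic AMP high, was at 3.19 and 2.62 FPKM (-0.22 ± 0.16 SE, adjusted p = 0.460). Leaving out melatonin replicate 4 gave -0.076, and leaving out control replicate 1 gave -0.305. Of the melatonin receptor genes, Mtnr1a had 1 fragment over the 8 libraries and Mtnr1b 0, where 3 fragments in a library would be 0.0618 to 0.0937 FPKM. Expression of both was thus not detectable at this depth.

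Among G protein subunits and their regulators no gene passed, with 10 of 16 tested genes positive and 2 without overlap, Ric8b and Gnai3, against 11.7% of all tested genes. Gnas, the stimulatory alpha subunit, was at 5.49 and 5.25 FPKM (log2 fold change -0.05 ± 0.07 SE, limma adjusted p = 0.714). Ric8b, a chaperone of that subunit, was at 5.85, 6.10, 6.49 and 5.63 FPKM in control and at 7.07, 6.63, 6.75 and 7.31 FPKM in melatonin, higher in every library (0.18 ± 0.06 SE, limma adjusted p = 0.170). Gnai3, an inhibitory alpha subunit, was at 45.7, 43.1, 41.5 and 43.9 FPKM in control and at 41.2, 40.8, 40.5 and 40.5 FPKM in melatonin, lower in every library (-0.09 ± 0.04 SE, limma adjusted p = 0.278). Gnb4, a beta subunit, was at 4.93 and 6.56 FPKM on average (0.36 ± 0.12 SE, limma adjusted p = 0.171).

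Of the phosphodiesterases outside the name pattern and the exporter Abcc4, 4 of 9 genes were tested. Pde1a, which calcium and calmodulin activate, was at 3.45, 3.24, 3.27 and 3.81 FPKM in control and at 5.25, 5.15, 4.48 and 4.98 FPKM in melatonin. Its groups did not overlap, and it had the smallest p of its list (log2 fold change 0.43 ± 0.07 SE, limma unadjusted p = 0.000205, adjusted p = 0.120). Pde3a, the phosphodiesterase of the oocyte, was at 1.31 and 1.20 FPKM (-0.07 ± 0.11 SE, limma adjusted p = 0.736; -0.15 after the GC and length correction), and Abcc4 was at 4.20 and 3.85 FPKM.

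Among PKA inhibitors and other cyclic AMP-binding proteins 6 of 13 were tested, with 0 at an unadjusted p under 0.05 (limma), against 19.1% of all tested genes. The inhibitor gene Pkia was at 1.83 and 1.80 FPKM and Pkib was under the minimum at 0.029 and 0.036 FPKM. The PKA-related kinase gene Prkx was at 2.82 and 3.14 FPKM and the channel gene Hcn2 at 3.41 and 2.55. The effectors below EPAC, with 8 of 10 tested and 5 negative, also had 0 at that level, against the same 19.1%. With so few genes these counts say little about either list. Rap1b, the GTPase that EPAC activates, was at 36.4 and 34.3 FPKM (log2 fold change -0.08 ± 0.04 SE, limma adjusted p = 0.310). After the GC and length correction it was -0.14 (limma unadjusted p = 0.0106, adjusted p = 0.190). Sipa1l1, which switches Rap off, was at 5.70 and 5.17 FPKM.

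CREB, its relatives, coactivators and the salt-inducible kinases were all tested, with 7 of 11 positive and 3 without overlap, against 11.7% of all tested genes. Creb1 was at 6.31 and 7.31 FPKM (log2 fold change 0.18 ± 0.08 SE, limma adjusted p = 0.252), and 0.07 after the GC and length correction. Its relative Atf1 was at 20.8 and 18.4 FPKM (-0.16 ± 0.06 SE, limma adjusted p = 0.229) and Crem at 1.63 and 1.78 FPKM (0.08 ± 0.11 SE, limma adjusted p = 0.737; 0.023 after the correction). Sik3, a kinase that PKA inhibits and that restrains CREB coactivators, was at 32.8, 26.5, 31.0 and 28.3 FPKM in control and at 21.5, 20.9, 22.1 and 25.4 FPKM in melatonin, lower in every library (-0.38 ± 0.08 SE, limma adjusted p = 0.121). The other 2 without overlap were higher. The related kinase Sik2 was at 3.13 and 3.61 FPKM on average (0.16 ± 0.06 SE, limma adjusted p = 0.235), and Ep300, a CREB coactivator, at 8.21 and 9.01 FPKM (0.12 ± 0.05 SE, limma adjusted p = 0.248).

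Transcripts that cyclic AMP induces in granulosa cells had negative log2 fold changes in 14 of 16 tested genes, against 52.5% of all tested genes, with a median of -0.33. The groups did not overlap in 3, Dusp1, Junb and the inhibin subunit gene Inha, against 11.7% of all. Dusp1, a phosphatase of MAP kinases, averaged 13.7 FPKM without and 6.97 FPKM with melatonin (log2 fold change -0.91 ± 0.22 SE, limma adjusted p = 0.138), and Junb, an immediate-early transcription factor, at 55.7 and 34.8 (-0.68 ± 0.20 SE, limma adjusted p = 0.150). Granulosa, theca, epithelial and immune markers were negative too in 11 of 12, 7 of 9, 6 of 6 and 7 of 7 tested genes. The lists share genes, since Cyp19a1, Inha and Inhba are also granulosa markers here and Cyp11a1, Lhcgr and Star also theca markers, and all 6 were negative. Epithelial markers had sums of 52.0 to 78.8 FPKM (control) and 44.1 to 49.4 FPKM (melatonin), and theca markers of 122 to 147 and 82.9 to 125 FPKM. Endothelial markers, with 4 of 4 negative, summed to 8.96 to 13.8 and 7.37 to 10.1 FPKM, and stroma markers, with 7 of 8 negative, to 62.1 to 118 and 53.7 to 90.9 FPKM. Their part in these differences was not tested.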

How the data were processed

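Per the submitters' processing notes, reads were aligned with HISAT2 2.0.5 to mm10. The sources used here do not say which tool and annotation counted the reads, or whether strand was used. The authors deposited FPKM per gene, per the file headers, in a table of the whole series that differed in 0 cells from the 8 sample files. Exon lengths from GENCODE M21 (54495 of 55157 identifiers) gave whole fragments within 0.05 for 98.7% to 98.9% of values of up to 30 fragments, and whole counts in all libraries for 53582 genes. Median-ratio size factors over the 22156 genes above 0 in every library were equal (1.006215 in each), so the deposited values already carry that scaling and their scale is not the plain library total.

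Genes averaging 1 FPKM or more (14738) were compared between the groups by limma 3.58.1 (R 4.3.3) on log2(FPKM + 1), with an intensity trend and group as the single term, over all 8 samples. Fold changes on this scale understate low genes. The threshold was an adjusted p of 0.05 (Benjamini-Hochberg). Groups do not overlap where all 4 values of a group exceed all 4 of the other. Library-level trends were removed with natural splines (5 degrees of freedom) in GC content and exon length for 14392 genes. The limma-voom alternative used recovered fragments of 13760 genes with median-ratio library sizes. On simulated data for melatonin against control (14582 genes), the test found 22.2% of genes with a simulated log2 difference of 0.5, 73.8% at a difference of 1 and 98.4% at 2, with 5 false calls. Small differences would thus mostly be missed. The simulation changed 63 to 65 genes per size and held none of the GC and length trends of these libraries. It therefore does not show that a difference of 1 would be found here. Inhba, at -1.06, had a limma adjusted p of 0.169.

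The members and lists were chosen with earlier results of these data known. Named were the 2 members of highest level per family, up to 16 members with an unadjusted p under 0.05 or no overlap, the members that complete a family, the 2 genes of smallest p per list and a fixed panel. Other genes, among them the antisense genes, Akap5, Akap13, Gnai3, Sik2, Ep300 and Inha, were chosen after their values were seen. Protein sequences were not used here. Tables were handled in Python 3.11.15 (pandas 2.3.3, numpy 2.4.6) and drawn with matplotlib 3.10.9.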

Additional observations from a re-analysis of the deposited data

Results flagged for a closer look

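In 100 groups of 4 values, 2 had a library farther from the rest than Dixon's 95% limit allows, where chance gives about 5% of groups. Neither was a member. The exporter gene Abcc4 was at 3.42 FPKM in melatonin replicate 4, against 3.96 to 4.05 FPKM in the other melatonin libraries. The channel gene Hcn2 was at 1.99 FPKM in melatonin replicate 3, against 2.73 to 2.76 FPKM in the others.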

How the results depend on the processing

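No member passed the threshold under any of 18 alternatives, among them median-ratio scaling (which changed nothing, by construction), array weights, a pseudocount of 0.1 and a minimum of 5 FPKM. Of the 30 tested members, 6 changed sign under at least 1 alternative. Adcy7 ran from -0.188 to 0.042 (positive without control replicate 2), Akap11 from -0.108 to 0.076, Akap7 from -0.080 to 0.051, Pde4dip from -0.044 to 0.027, and the others were Prkacb and Akap8. Prkacb was at 0.013 with library-total scaling (chosen after seeing the data), 0.006 with array weights and 0.001 with limma-voom, and leaving out 1 library gave -0.028 to 0.017. Pkia was at 0.001 with library-total scaling and at -0.072 to 0.070 with 1 library left out, and Akap8 at -0.007 to 0.047. The GC and length correction left 5 members at an unadjusted p under 0.05 and 2 without overlap (16.7% and 6.67%, against 17.1% and 10.3% of all genes). With no minimum 1 of 34898 genes passed and the members' median was -0.005. Leaving out 1 library gave 0 to 1 genes past the threshold and medians from 0.010 to 0.040. It left 4 to 10 members (13.3% to 33.3%) at an unadjusted p under 0.05, against 13% to 22.2% of all genes. Without overlap were 4 to 10 members (13.3% to 33.3%), against 13.7% to 20.5% of all genes. Without control replicate 4, 10 members (33.3%) and 20.5% of all genes did not overlap, and without control replicate 3, 4 members (13.3%) and 14.8% of all genes had an unadjusted p under 0.05. The cause was not tested. Library-total scaling moved the split at an unadjusted p under 0.05 from 1385 higher and 1436 lower genes to 1640 and 1097. Deviations from the group mean correlated between same-numbered libraries at r = 0.001, -0.103, 0.151 and 0.038, and between the others at -0.091 to 0.096. With 4 libraries per group this cannot settle whether the numbers pair them. A replicate block lowered the SE of Rapgef4 from 0.235 to 0.086 (limma adjusted p = 0.142) and that of Prkar2b from 0.121 to 0.065 (limma adjusted p = 0.167). It raised others, such as that of Prkar1a from 0.053 to 0.062. With the replicate block 0 members passed and the median was 0.016. In that fit 10 members (33.3%) had an unadjusted p under 0.05, against 18.8% of all genes, and 4 (13.3%) did not overlap, against 11.7%. Over the alternatives the log2 fold change of Rapgef4 ran from 0.72 to 1.06 (adjusted p 0.107 to 0.331), that of Adcy3 from -0.33 to -0.23 and that of Pde8a from -0.21 to -0.14. Where 1 library is left out, its group has 3.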

Other observations

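Transcripts annotated inside introns of Adcy9, Akap9 and Pde8a were looked at after their values were seen. Others, as in Akap7 and Pde4d, are not given here. Gm6142, a processed pseudogene within Adcy9 that shares 0 exon bases with it, was at 3.54, 3.88, 3.35 and 4.05 FPKM in control and at 7.03, 6.58, 4.15 and 5.49 FPKM in melatonin replicates 1 to 4, without overlap (log2 fold change 0.52 ± 0.14 SE, limma adjusted p = 0.146). Adcy9 itself differed by 0.22 with overlapping groups. Gm43031, a transcript within an intron of Akap9, averaged 1.69 ± 0.13 FPKM without and 2.19 ± 0.25 FPKM with melatonin (SD, n = 4 each), also without overlap (0.25 ± 0.09 SE, limma adjusted p = 0.188). Of all tested genes 11.7% did not overlap. Gm7180, a processed pseudogene within Pde8a, was at 1.68 ± 1.13 and 2.07 ± 0.34 FPKM, with overlapping groups, while Pde8a differed in the opposite direction. Reads of a processed pseudogene can come from its parent gene, and reads from introns of the host gene cannot be told apart from these transcripts. These values are therefore uncertain.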
